A study of Mus musculus with 6 samples.

Results

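The genes described here are the 9 genes of a set of endoplasmic reticulum (ER) calcium pumps, release channels and refilling proteins, taken by gene name from a deposited table of 54532 genes. They are the pumps Atp2a2 and Atp2a3, the release channels Itpr1, Itpr2, Itpr3 and Ryr2, the ER calcium sensors Stim1 and Stim2, and the plasma membrane channel Orai1. All 9 were found in the table. The set was chosen because Atp2a2 was lower in the mutant, so its difference is given as a description with no test. The libraries were 3 from islets with a conditional knockout of Bcas2 (genotype Cko; the design text speaks of a knockdown), against 3 from control islets (genotype wt). BCAS2 is a splicing factor of the Prp19 complex. All 6 mouse libraries carry the tissue pancreas islet and the cell type beta cell, the insulin-producing cell of the islet. The deleted part of Bcas2, the Cre driver, and the number, sex and age of the mice are not stated in the labels. Separate animals are not named for the libraries of a group either. The p-values therefore measure how these libraries vary, and that variation may be technical. The Bcas2 cKO libraries carry the numbers 3, 4 and 5 in the table. The labels name 1, 3 and 4, so library 5 has the group but no sample of its own.

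Beta cells keep a steep calcium gradient across the ER membrane. Pumps of the SERCA family, encoded by the Atp2a genes, load the ER with calcium from the cytosol. IP3 receptors, encoded by the Itpr genes, let it out when hormones or neurotransmitters raise IP3, and ryanodine receptors let it out in response to calcium itself. When the store runs low, STIM proteins in the ER membrane open ORAI channels in the plasma membrane and the pumps refill the store. In islets this cycle shapes the calcium oscillations that accompany insulin secretion, and a filled ER is needed for folding proinsulin.

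Atp2a2 and Atp2a3 are paralogs, as are the IP3 receptor genes and the STIM genes, so their values rest on how far their transcripts can be told apart. Over the aligned GENCODE M21 coding sequence (GRCm38) the identity of the pump pair was 69.9%, and no window of 50 bases was shared exactly. The IP3 receptor pairs had 68.7 to 70.8% identity and the STIM pair 61.1%, again with no shared window of 50 bases. Of the exon bases of Atp2a2, 83 (1.36%) also belong to Gm43361, annotated on the opposite strand. Other opposite-strand genes share 2.58% of the exon bases of Itpr3 (Itpr3os), 0.590% and 0.988% of those of Itpr1 (Gm44040 and Gm44101) and 0.305% of those of Orai1 (Gm2479). No label states whether the counting used strand, so reads in these bases cannot be assigned to a strand.

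Values are FPKM, reads scaled by gene length and library depth, as deposited by the authors. Reads per gene could be recovered from the steps of these values, and came to 16351800 to 16904326 per Bcas2 cKO library and 15170439 to 15594871 per control library. Acinar markers, genes of the enzyme-secreting pancreas, took 2.03 to 5.72% of the reads in Bcas2 cKO and 0.624 to 1.53% in control. Of 19 acinar markers that averaged 1 FPKM or more in both groups 7 rose and none fell, with a median log2 fold change of 1.65. Beta cell markers were present in every library. They took 14.6 to 16.0% of the reads in Bcas2 cKO and 20.5 to 28.8% in control. Of these 10 markers 9 had a difference below 0, with a median log2 fold change of -0.65. Slc2a2, Slc30a8 and Ucn3 fell and the other 7 did not pass the test. Of all genes tested, 6.97% rose and 7.55% fell. The insulin genes did not overlap between the groups and did not pass the test, with 72591 ± 7462 FPKM of Ins2 in Bcas2 cKO and 135234 ± 35083 FPKM in control, and 38687 ± 3248 FPKM of Ins1 in Bcas2 cKO and 59247 ± 13893 FPKM in control (SD, n = 3 each, limma adjusted p 0.38 and 0.44). Bcas2 itself was 8.77 ± 0.370 FPKM in Bcas2 cKO and 12.2 ± 2.51 FPKM in control (SD, n = 3 each), and did not pass the test (limma adjusted p 0.083). Less RNA per cell and fewer cells of a type cannot be told apart in these bulk libraries.

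Atp2a2 (ENSMUSG00000029467, chromosome 5, 122453513 to 122502225, minus strand, GRCm38) encodes SERCA2, the pump that nearly all cells use. It had 165, 148 and 166 FPKM in Bcas2 cKO libraries 3, 4 and 5, against 338, 336 and 337 FPKM in control libraries 1, 3 and 4. The 3 control libraries lay within 3 FPKM of each other and every Bcas2 cKO library lay far below them. The means were 159.8 ± 9.83 FPKM in Bcas2 cKO and 337 ± 1.34 FPKM in control (SD, n = 3 each), a ratio of 0.474. On the log2(FPKM + 1) scale the difference was -1.07 (SE 0.095). These values rest on 15892 to 18150 reads per Bcas2 cKO library and 27567 to 32643 per control library. The transcript ranked 146th of all genes by mean FPKM in Bcas2 cKO and 52nd in control. Of the 242 tested genes that averaged 100 FPKM or more, 3 had a ratio of means as low as that, Atp2a2 itself, Ucn3 and 1 clone-named gene. The set was chosen for the fall of Atp2a2, so nothing is read from this count. Ucn3 encodes the urocortin of mature beta cells.

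Atp2a3 (ENSMUSG00000020788, chromosome 11, 72961169 to 72993044) encodes SERCA3, a pump of lower calcium affinity that is found in islets and blood cells. It had 176, 162 and 160.0 FPKM in Bcas2 cKO libraries 3, 4 and 5, against 297, 243 and 245 FPKM in control libraries 1, 3 and 4. The groups did not overlap, and control library 1 was the highest of the 6. Its mean was 166 ± 8.90 FPKM in Bcas2 cKO and 262 ± 30.4 FPKM in control (SD, n = 3 each). Atp2a3 fell by 0.65 on the log2(FPKM + 1) scale (SE 0.12, limma adjusted p 0.015 over all genes tested). The call was lost when Bcas2 cKO library 4 (adjusted p 0.059) or library 5 (0.058) was left out, and the difference kept its size. The part of the lower beta cell marker share in the pump differences was not tested.

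The pumps differed in how much lower they were, so their balance shifted. Atp2a2 made up 48.2, 47.8 and 51.0% of the summed FPKM of the pair in Bcas2 cKO libraries 3, 4 and 5, against 53.3, 58.0 and 57.8% in control libraries 1, 3 and 4. Every Bcas2 cKO share lay below every control share. In control Atp2a2 exceeded Atp2a3 in every library with ranges that did not overlap, whereas in Bcas2 cKO the ranges of the pair overlapped. The summed pumps came to 326 ± 15.1 FPKM in Bcas2 cKO and 599 ± 31.7 FPKM in control (SD, n = 3 each). These shares and sums use Atp2a2 and are given with no test.

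**Figure D1:**
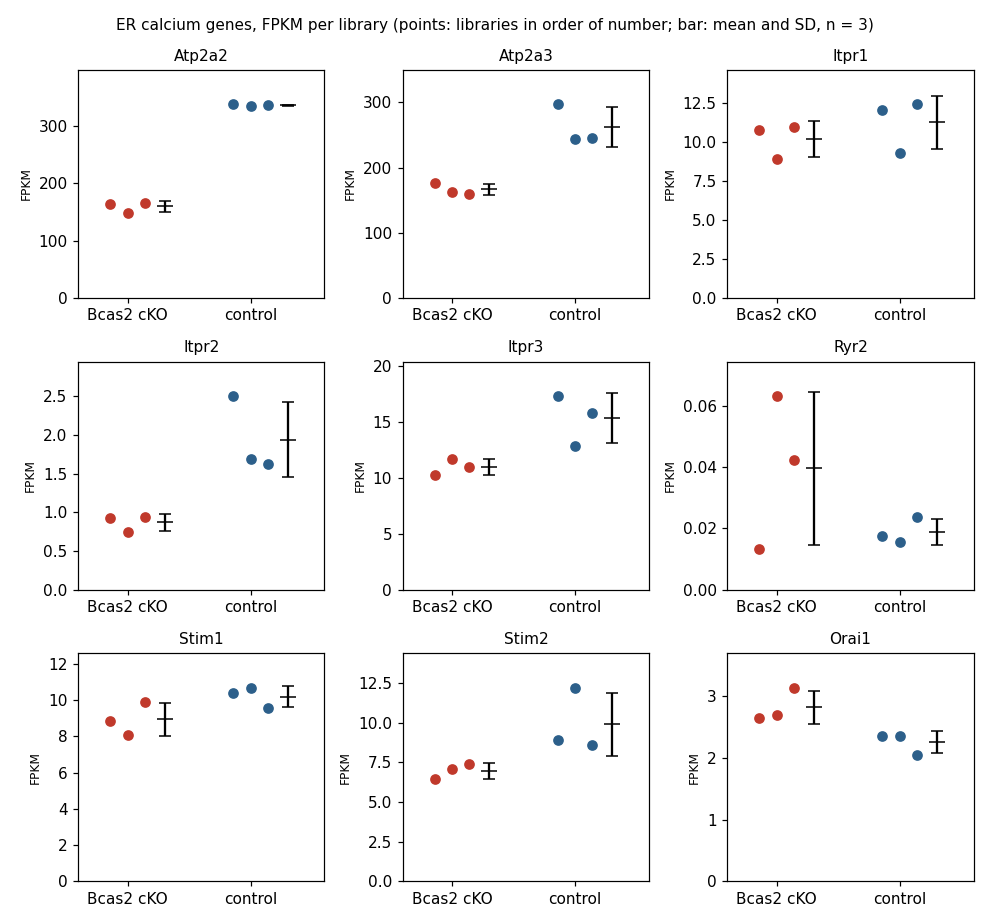
FPKM (y axis, from 0) of each of the 9 genes in the 3 Bcas2 cKO libraries (left, numbers 3, 4 and 5) and the 3 control libraries (right, numbers 1, 3 and 4), with the mean and SD beside them. The groups are apart for Atp2a2, Atp2a3, Itpr2, Itpr3, Stim2 and Orai1, with Orai1 the higher in Bcas2 cKO, and overlap for Itpr1, Stim1 and Ryr2.

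Itpr3 (ENSMUSG00000042644, chromosome 17, 27057304 to 27122223) encodes the type 3 IP3 receptor, the most abundant of the release channels in the deposited values. It had 10.3, 11.7 and 10.9 FPKM in Bcas2 cKO libraries 3, 4 and 5, against 17.3, 12.9 and 15.8 FPKM in control libraries 1, 3 and 4. The groups did not overlap, though control library 3 came close to Bcas2 cKO library 4. Itpr3 fell by 0.44 (SE 0.12, limma adjusted p 0.047). That p is near the threshold, and the call was lost in 5 of the 6 leave-one-out fits, with adjusted p up to 0.14. It remained without control library 3 (0.023).

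Itpr2 (ENSMUSG00000030287, chromosome 6, 146108299 to 146502223, minus strand) encodes the type 2 IP3 receptor, which has the highest affinity for IP3 of the family. It had 0.920, 0.745 and 0.944 FPKM in Bcas2 cKO libraries 3, 4 and 5, against 2.50, 1.69 and 1.62 FPKM in control libraries 1, 3 and 4. The groups were apart, with Bcas2 cKO the lower, and the ratio of means was 0.449. The difference was -0.64 on the log2(FPKM + 1) scale (SE 0.15), a scale that understates the change of such a low gene. It was -1.05 with a pseudocount of 0.1 and -1.14 with voom on the recovered reads. It was counted on 194 to 587 reads per library. Its mean over the 6 libraries passed the filter of 1 FPKM through the control libraries, so it is not counted as a fall here. The limma adjusted p was 0.037 with the filter, 0.095 without one, and 0.068 to 0.10 in the 6 leave-one-out fits.

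Itpr1 (ENSMUSG00000030102, chromosome 6, 108213096 to 108551109), the type 1 receptor and the main one of the brain, overlapped between the groups. It had 10.7, 8.87 and 10.9 FPKM in Bcas2 cKO libraries 3, 4 and 5, against 12.0, 9.28 and 12.4 FPKM in control libraries 1, 3 and 4. The difference was -0.13 (SE 0.13, limma adjusted p 0.55). It turned to 0.0049, with an adjusted p of 0.99, when libraries were scaled to their recovered reads.

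Ryr2 (ENSMUSG00000021313, chromosome 13, 11553102 to 12106945, minus strand), the cardiac ryanodine receptor, was close to absent. It had 0.013, 0.063 and 0.042 FPKM in Bcas2 cKO libraries 3, 4 and 5, against 0.018, 0.015 and 0.024 FPKM in control libraries 1, 3 and 4. These were 7, 32 and 21 reads in Bcas2 cKO and 8, 6 and 10 reads in control. Bcas2 cKO library 3 lay below every control library in FPKM, and the other Bcas2 cKO libraries above, so the groups overlapped. Over each group the reads summed to 60 in Bcas2 cKO (95% exact Poisson interval 45.8 to 77.2) and 24 in control (15.4 to 35.7), intervals that cover counting error only. Per recovered read the ratio was 2.29 (95% exact interval 1.41 to 3.85, counting error only). Ryr2 did not pass the filter and was not tested. With no filter its adjusted p was 0.59. The other ryanodine receptor genes, Ryr1 and Ryr3, were at most 0.126 FPKM in any library.

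Together the release channels came to 22.0, 21.4 and 22.9 FPKM in Bcas2 cKO libraries 3, 4 and 5, against 31.9, 23.9 and 29.9 FPKM in control libraries 1, 3 and 4. The groups did not overlap. The exact permutation test on log2 values (2-sided, n = 3 each) gave p = 0.1, and groups of this size can give none smaller. Itpr1 made up 46.1 ± 3.98% of this sum in Bcas2 cKO and 39.4 ± 1.88% in control, and Itpr2 made up 3.93 ± 0.389% in Bcas2 cKO and 6.79 ± 1.24% in control (SD, n = 3 each). The summed pumps exceeded the summed channels 14.8 ± 0.651 times in Bcas2 cKO and 21.2 ± 2.64 times in control. Acinar cells are known to use the type 2 and type 3 receptors for enzyme secretion. Itpr2 and Itpr3 were lower in the group where the acinar markers were higher, and Bcas2 cKO library 5, with the highest acinar share, held 0.944 and 10.9 FPKM of them. That library also had the highest Atp2a2 level of the Bcas2 cKO libraries. The part of acinar RNA in these differences was not tested.

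**Figure D2:**
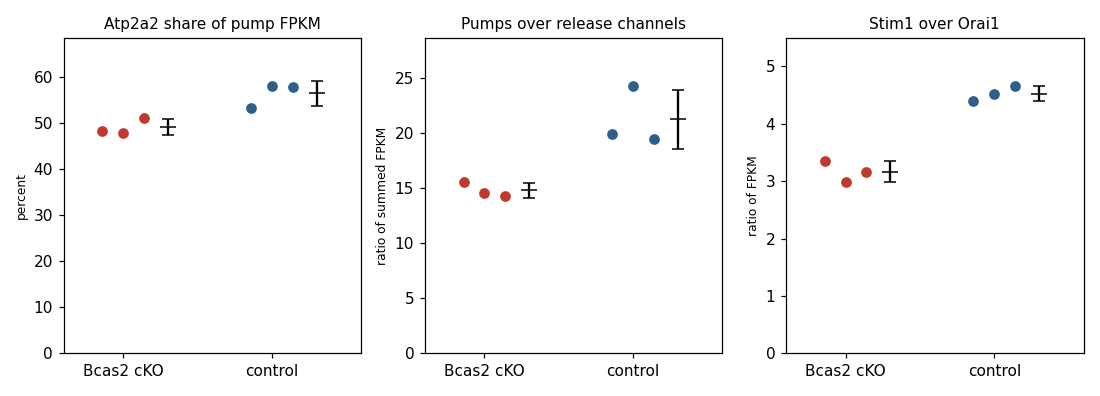
Per library (3 Bcas2 cKO left, 3 control right, bar with mean and SD), the Atp2a2 share of the summed pump FPKM in percent, the ratio of summed pump FPKM to summed release channel FPKM, and the ratio of Stim1 to Orai1 FPKM, each on an axis from 0. All 3 quantities are lower in every Bcas2 cKO library than in any control library.

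Stim1 (ENSMUSG00000030987, chromosome 7, 102267806 to 102437319), the sensor that responds to store depletion, had 8.85, 8.05 and 9.87 FPKM in Bcas2 cKO libraries 3, 4 and 5, against 10.4, 10.7 and 9.53 FPKM in control libraries 1, 3 and 4. The groups overlapped, and the difference of -0.18 (SE 0.092) did not pass the test (limma adjusted p 0.24). Stim2 (ENSMUSG00000039156, chromosome 5, 53998499 to 54121057), the sensor that is tuned to small drops in store calcium, had 6.42, 7.11 and 7.38 FPKM in Bcas2 cKO, against 8.89, 12.2 and 8.58 FPKM in control. The groups did not overlap, and control library 3 stood above the rest. The difference of -0.44 (SE 0.13) did not pass (limma adjusted p 0.072). It did pass with voom on the recovered reads (adjusted p 0.038), rescaled without the hormone genes (0.025) and rescaled without hormone and acinar genes (0.043).

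Orai1 (ENSMUSG00000049686, chromosome 5, 123015074 to 123030456), the pore that STIM1 opens, was the member with a higher level in Bcas2 cKO among those tested. It had 2.64, 2.70 and 3.13 FPKM in Bcas2 cKO libraries 3, 4 and 5, against 2.36, 2.36 and 2.05 FPKM in control libraries 1, 3 and 4. The groups did not overlap, but the difference of 0.23 (SE 0.099) did not pass the test (limma adjusted p 0.16). It was counted on 109 to 124 reads per Bcas2 cKO library and 69 to 86 per control library. Its difference stayed above 0 under every scaling that was run. Its paralogs did not pass the test either. Orai2 differed by 0.22 (limma adjusted p 0.25) and Orai3, the most abundant of the 3, by -0.36 (0.065). The summed FPKM of Stim1, Stim2 and Orai1 was 18.7 ± 1.44 in Bcas2 cKO and 22.3 ± 2.58 in control (SD, n = 3 each), with overlapping groups and an exact permutation p of 0.2. The ratio of Stim1 to Orai1, looked at after the values were seen and given with no test, was 3.35, 2.98 and 3.15 in Bcas2 cKO libraries 3, 4 and 5, against 4.40, 4.52 and 4.66 in control libraries 1, 3 and 4. Its groups did not overlap.

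Beside Atp2a2, 6 members averaged 1 FPKM or more in both groups, and of these 2 fell, none rose and 4 did not pass. Of all 13723 genes tested, 14.5% were called, 7.55% as falls and 6.97% as rises. Groups did not overlap for 4 of these 6 members, 3 of them lower in Bcas2 cKO, and for 38.0% of all genes tested, 21.1% in that direction. The set was picked on this same contrast, so nothing is read from these shares. The calls also depend on how libraries are scaled. With libraries scaled to their recovered reads, the median log2 change over all genes tested was 0.09 in place of -0.03, and 76.8% of calls were rises in place of 48.0%. Atp2a3 (-0.50, adjusted p 0.060), Itpr2 (-0.56, 0.076) and Itpr3 (-0.31, 0.21) were then below that median with adjusted p above 0.05, and Atp2a2 differed by -0.93. With the hormone genes left out of the scaling the median was -0.12, with 32.7% of calls as rises, and Atp2a3 and Itpr3 stayed called.

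**Figure D3:**
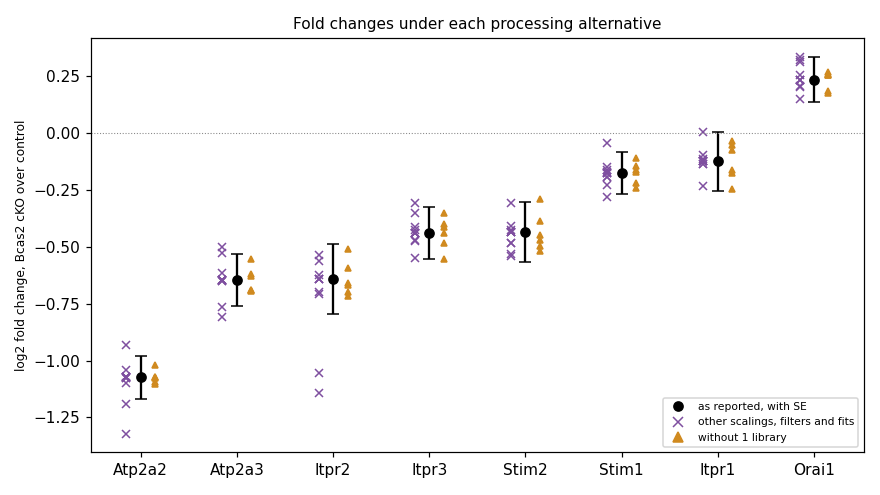
Log2 fold change of Bcas2 cKO over control (y axis) for the 8 tested genes as reported (black, with SE), under other scalings, filters and fits (crosses), and with 1 library left out (triangles). Atp2a2 lies between -1.32 and -0.93 and Orai1 between 0.15 and 0.33 throughout, whereas Itpr1 reaches 0.0049.

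FPKM is per length, so the deposited levels can be put in order between genes, but that order depends on the length used. The order in control was Atp2a2, Atp2a3, Itpr3, Itpr1, Stim1, Stim2, Orai1, Itpr2 and Ryr2. In Bcas2 cKO it differed in that Atp2a3 came before Atp2a2. In control Atp2a3 stood 17.1-fold above Itpr3, the next gene, and the ranges of Itpr1 and Stim1, of Stim1 and Stim2, and of Orai1 and Itpr2 overlapped. In Bcas2 cKO the ranges of Atp2a3 and Atp2a2, of Itpr3 and Itpr1, and of Itpr1 and Stim1 overlapped. Orai1 exceeded Itpr2 3.25-fold in Bcas2 cKO, with ranges apart, and 1.16-fold in control, with ranges that overlapped. The deposited gene length equals the number of all annotated exon bases for 8 of the 9 genes, and for Itpr1 it is 18319 bases against 9870 bases in its longest coding transcript. Per kilobase of the longest coding transcript and scaled to recovered reads, a length chosen after the values were seen, Stim1 and Itpr1 came before Itpr3 in both groups and Atp2a2 came before Atp2a3 in both. On that scale, which differs from the deposited FPKM in its length and depth, Stim1 was 22.4 in Bcas2 cKO and 23.2 in control, and Itpr3 11.6 in Bcas2 cKO and 14.8 in control.

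**Figure D4:**
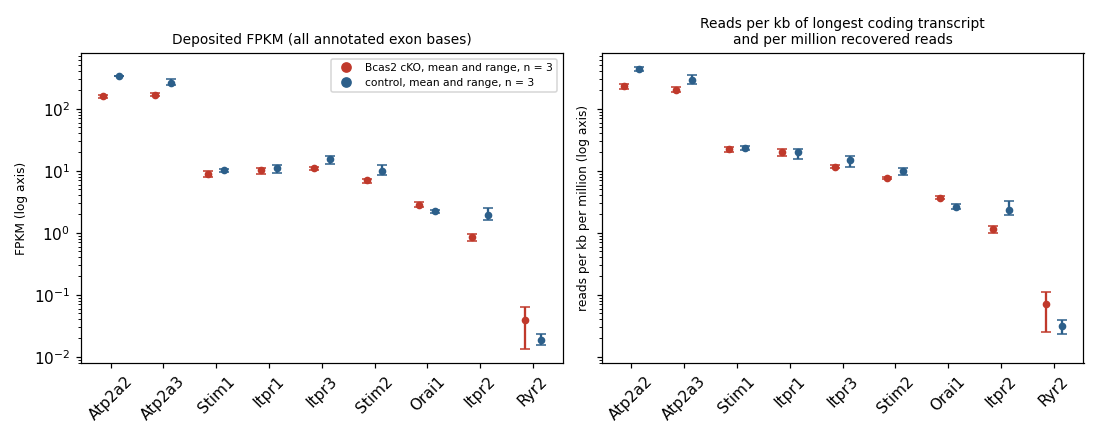
Levels of the 9 genes (log axis) as deposited FPKM (left) and per kilobase of the longest coding transcript and scaled to recovered reads (right), mean and range of 3 Bcas2 cKO and 3 control libraries. The pumps stand highest and Ryr2 lowest on both scales.

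The genes whose pattern over the 6 libraries was nearest to that of Atp2a2 were chosen from 4029 protein-coding genes of at least 10 FPKM. The measure was the root mean square difference of log2(FPKM + 1) values centred on each gene's mean. They were Dnajc24 (0.074), Zdhhc2 (0.077), Asah1 (0.097), Fam151a (0.106) and Col6a6 (0.107). Dnajc24 encodes a J-domain protein of diphthamide synthesis, Zdhhc2 a palmitoyltransferase and Asah1 the acid ceramidase of lysosomes. Dnajc24 was 15.6 ± 1.11 FPKM in Bcas2 cKO and 31.8 ± 2.25 FPKM in control, and Zdhhc2 24.4 ± 0.985 FPKM in Bcas2 cKO and 54.8 ± 4.51 FPKM in control (SD, n = 3 each). The 5 genes were chosen for the pattern of Atp2a2, so their lower levels in Bcas2 cKO follow from that choice. Atp2a3 was at a distance of 0.24, with 84 of the 4029 genes nearer, and Itpr2 at 0.25, with 102 nearer. Orai1 was the farthest tested member, at 0.66. The minimum of 10 FPKM was not asked of the members, and Itpr2 lies below it. The set was chosen for the fall of Atp2a2, so nothing is read from the distances of the members.

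Other genes of calcium handling were drawn from 4 lists made with earlier results of these data known. Of 30 tested regulators of the pumps and channels, 6 fell and 1 rose, or 23.3% called against 14.5% of all genes tested, with a median of -0.15 against -0.03. When libraries were scaled to their recovered reads, 2 fell and 2 rose. Fkbp1b, the calstabin that binds ryanodine receptors, had 42.7, 36.7 and 46.3 FPKM in Bcas2 cKO libraries 3, 4 and 5, against 81.9, 76.0 and 66.7 FPKM in control libraries 1, 3 and 4. The groups were well apart, and Fkbp1b fell by 0.82 (SE 0.12, limma adjusted p 0.0080), a call that held under every alternative run. Jph3, a junctophilin that ties the ER to the plasma membrane, fell by 0.66 (limma adjusted p 0.019), and Tmem38a, a potassium channel of the ER that offsets the charge of released calcium, by 0.48 (0.037). Mrln, whose product myoregulin inhibits SERCA in muscle, rose to 22.8 ± 2.93 FPKM in Bcas2 cKO, against 15.7 ± 2.19 FPKM in control (log2 fold change 0.51, SE 0.13, limma adjusted p 0.045). Mrln lost its call in 4 of the 6 leave-one-out fits, Jph3 in 2 and Tmem38a in 5. The muscle SERCA inhibitors Pln and Sln were at 0 in all libraries but Bcas2 cKO library 5, at 0.021 and 0.088 FPKM.

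Of 16 genes of calcium-binding proteins of the secretory pathway that averaged 1 FPKM or more in both groups, 2 fell and 1 rose. Their median was -0.14, and 14.5% of all genes tested were called. Groups did not overlap for 8 of these 16 genes, 6 of them lower and 2 higher in Bcas2 cKO. Of all genes tested 38.0% did not overlap, 21.1% with Bcas2 cKO the lower. Scaled to recovered reads, none of the list fell and 2 rose. Canx, the lectin chaperone calnexin, fell to 67.8 ± 6.99 FPKM in Bcas2 cKO, against 90.2 ± 3.68 FPKM in control (-0.41, limma adjusted p 0.037). Nucb2, the precursor of nesfatin, fell by 0.47 (0.047), and Calu, which encodes calumenin, rose by 0.60 (0.014). Canx and Nucb2 each lost their calls in 5 of the 6 leave-one-out fits, and Calu in none. Calr, which encodes the main luminal calcium buffer, was 185, 216 and 177 FPKM in Bcas2 cKO libraries 3, 4 and 5, against 212, 207 and 187 FPKM in control libraries 1, 3 and 4, with overlapping groups (-0.07, limma adjusted p 0.73). Hspa5, a luminal chaperone, was 307, 406 and 343 FPKM in Bcas2 cKO, against 262, 277 and 264 FPKM in control. The difference of 0.39 (SE 0.13) did not pass (limma adjusted p 0.092). Its groups did not overlap, as for 16.8% of all genes tested in that direction. Groups overlapped for Hsp90b1 (0.05, limma adjusted p 0.81), Pdia4 (0.09, 0.81), Pdia6 (-0.17, 0.51) and Sdf2l1 (-0.06, 0.91). Calr, Hspa5, Hsp90b1, Pdia4, Pdia6 and Sdf2l1 were chosen after their values were seen.

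Of 15 genes that make or remove IP3 and averaged 1 FPKM or more in both groups, 1 fell and 1 rose, with a median of -0.09. Scaled to recovered reads, none of the list fell and 1 rose. Plcg1, the phospholipase C that tyrosine kinases activate, had 19.2, 18.0 and 18.9 FPKM in Bcas2 cKO libraries 3, 4 and 5, against 12.5, 11.1 and 12.4 FPKM in control libraries 1, 3 and 4. It rose by 0.60 (SE 0.078, limma adjusted p 0.0054), and kept its call without any 1 library. Itpkb, a kinase that converts IP3 to IP4, fell to 30.0 ± 0.977 FPKM in Bcas2 cKO, against 37.6 ± 1.49 FPKM in control (-0.32, limma adjusted p 0.033). Plcxd3 was 0.722 ± 0.039 FPKM in Bcas2 cKO and 1.77 ± 0.446 FPKM in control (-0.67, limma adjusted p 0.032). It passed the filter through the control libraries and is not counted as a fall. Itpkb lost its call in 5 of the 6 leave-one-out fits. The muscarinic receptor gene Chrm3, which drives IP3 in beta cells and was chosen after its values were seen, did not pass (-0.68, SE 0.20, limma adjusted p 0.066).

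Of 22 tested calcium transporters of other membranes, 3 fell and none rose, or 13.6% called against 14.5% of all genes tested, with a median of -0.05. Scaled to recovered reads, none fell and 1 rose. The 3 were the sodium-calcium exchangers Slc8a1 (-0.52, limma adjusted p 0.037) and Slc8a2 (-0.41, 0.036) and the plasma membrane pump Atp2b4 (-0.29, 0.046). Slc8a1 was 5.90 ± 0.637 FPKM in Bcas2 cKO and 8.97 ± 1.42 FPKM in control (SD, n = 3 each). The calls of Slc8a2 and Atp2b4 were lost in each of the 6 leave-one-out fits, and the call of Slc8a1 in 5. The count of calls in this list was 0 to 2 over those fits.

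**Figure D5:**
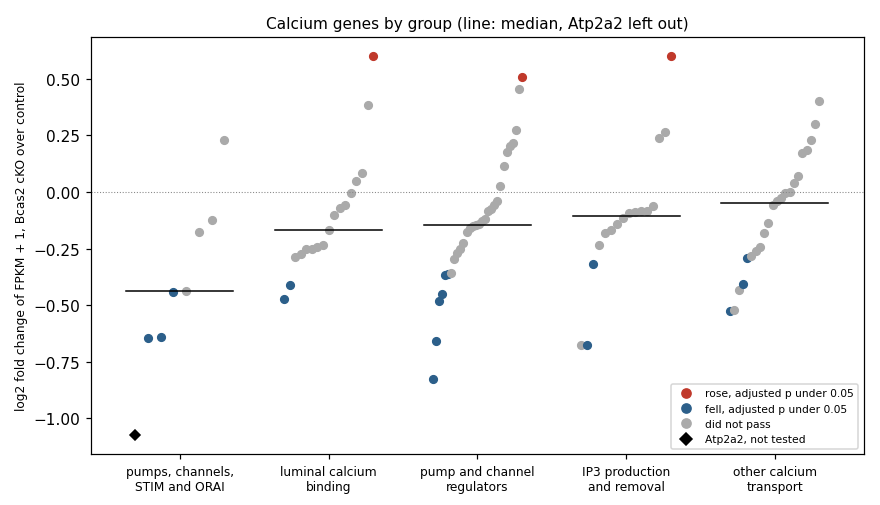
Log2 fold change of FPKM + 1, Bcas2 cKO over control (y axis), of each tested gene of the ER calcium set and of 4 further calcium lists, sorted within each group, with the median as a line (Atp2a2 left out). Atp2a2, drawn as a diamond and given no test, is at -1.07, and the called genes of the 4 lists lie between -0.82 (Fkbp1b) and 0.60 (Calu and Plcg1). Itpr2 and Plcxd3 are coloured as falls here, though the text does not count them because they passed the filter through the control libraries. The lines are medians over all tested genes, so they can differ from medians in the text over genes above the filter in both groups.

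Other cell types of the islet preparation moved beside these results. Of 9 immune cell markers that averaged 1 FPKM or more in both groups 5 rose and 4 did not pass. Of all genes tested, 6.97% rose. The immune markers summed to 120 to 144 FPKM in Bcas2 cKO and 98.4 to 124 FPKM in control. None of 8 tested endothelial markers, 8 of muscle and stellate cells and 4 of ducts passed the test. Their summed levels overlapped between the groups, at 109 to 144 FPKM in Bcas2 cKO and 113 to 136 FPKM in control for the endothelial markers. Among 8 genes that mark the non-beta endocrine cells, 2 rose, the transcription factors Irx1 and Irx2, and 6 did not pass. Of these 8, 7 had a difference above 0, with a median log2 fold change of 0.30. They took 4.25 to 4.66% of the reads in Bcas2 cKO and 3.38 to 3.48% in control, and their summed FPKM overlapped between the groups. The leukocyte gene Ptprc, the T cell gene Cd3e and the duct genes Sox9 and Cftr were under 1 FPKM in every library. Sox9, at 0.844 FPKM in Bcas2 cKO and 0.435 FPKM in control, and Cftr, at 0.276 FPKM in Bcas2 cKO and 0.019 FPKM in control, were higher in every Bcas2 cKO library than in any control library. Both were below the filter and not tested. Groups overlapped for all 3 duct markers that averaged 1 FPKM or more in both groups. Of all genes tested, 16.8% were apart with Bcas2 cKO the higher. The part of these cells in the differences of the pumps and channels was not tested.

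RefSeq (GRCm38.p6) promoter windows were given for 7 of the 9 genes, all but Atp2a2 and Itpr1. The 250 bases before the start site were searched on both strands for CCAAT, for CCACG, for their spaced pair, the ER stress response element, and for the cAMP response element TGACGTCA. CCAAT was found before Itpr2, Stim2 and Orai1, a match that 33.8% of 32851 windows hold. CCACG was found before Itpr2, Itpr3, Stim2 and Orai1, against 28.3% of windows. Neither longer motif was found in the 7 windows, against 0.113% and 1.55% of all windows. Itpr2 and Orai1 are shown because the first was lower and the second higher in Bcas2 cKO while both hold CCAAT, marked in capitals on either strand. The Itpr2 stretch is chr6:146502224-146502473 on the minus strand and the Orai1 stretch chr5:123014824-123015073 on the plus strand.
Itpr2: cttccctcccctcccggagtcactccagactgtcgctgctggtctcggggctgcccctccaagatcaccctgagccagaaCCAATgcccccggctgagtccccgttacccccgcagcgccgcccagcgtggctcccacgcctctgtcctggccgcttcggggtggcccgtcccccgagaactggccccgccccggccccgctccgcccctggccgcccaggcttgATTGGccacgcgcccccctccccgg
Orai1: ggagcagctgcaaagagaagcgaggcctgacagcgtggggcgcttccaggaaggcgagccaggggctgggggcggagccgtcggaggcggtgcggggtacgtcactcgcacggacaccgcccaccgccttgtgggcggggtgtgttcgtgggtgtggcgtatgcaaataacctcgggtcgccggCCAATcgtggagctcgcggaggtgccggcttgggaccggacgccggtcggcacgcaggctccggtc
A match describes these letters in this window and is not a measured binding site.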

How the data were processed

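RNA of 6 mouse islet samples was extracted with Trizol and made into libraries with a SMARTer kit, per the labels' protocols. The authors deposited FPKM per gene, 1 column per library, per the file headers. The build was GRCm38 (mm10), per the submitters' processing notes. The aligner and the counter were not given in the sources used here, nor was strand. The deposited gene length, read per the file headers, was used as given. Multiplied by length and divided by each library's smallest step, 100% of the FPKM values above 0 were whole reads within 0.01. The depth implied by the FPKM was 1.020 to 1.11 times the recovered totals in Bcas2 cKO and 0.890 to 1.017 times in control. The values therefore carry a further scaling between libraries. It lowers every Bcas2 cKO library relative to every control library. Every pair of libraries differed by more than sampling noise (chi-square per degree of freedom at least 13.6).

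The 13723 genes averaging 1 FPKM or more were compared as log2(FPKM + 1) by limma 3.58.1 (eBayes with trend) in R 4.3.3, Benjamini-Hochberg adjusted over all of them and called under 0.05. The fit was tested on simulated data. Exact permutation tests and tables used Python 3.11.15, scipy 1.17.1, numpy 2.4.6 and pandas 2.3.3, and figures matplotlib 3.10.9. The members, lists and rules were chosen with earlier results of these data known. The genes named by rule are the 9 members, Bcas2, Ins1 and Ins2 as checks, up to 4 called genes of largest change per calcium list, and the 5 genes most like Atp2a2. Marker genes, genes sharing exon bases, Ucn3, Orai2, Orai3, Ryr1, Ryr3, Pln, Sln, Calr, Hspa5, Hsp90b1, Pdia4, Pdia6, Sdf2l1 and Chrm3 were named after their values were seen. Efcab4a and Efcab4b were matched as Cracr2b and Cracr2a, and Itprip was not analysed here. Alternatives were a pseudocount of 0.1, other filters and scalings, eBayes without trend, voom on the recovered reads, a block on shared numbers and leaving out each library. Scaling to recovered reads, the longest-transcript lengths and counts over genes above the filter in both groups were added after the data were examined.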

Additional observations from a re-analysis of the deposited data

How the results depend on the processing

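The call threshold was an adjusted p of 0.05. Without a filter 1144 genes were called (628 rose, 516 fell), and Itpr2 (-0.64, adjusted p 0.095) and Itpr3 (-0.44, 0.10) were not. The luminal list then had 1 call, the regulators 2 and the other transporters 0. Itpr3 also lost its call with quantile normalization (-0.43, 0.067), median-of-ratios scaling (-0.41, 0.066), eBayes without trend (-0.44, 0.060) and rescaling without hormone and acinar genes (-0.44, 0.077). Atp2a2 moved to -1.32 with quantile normalization and -1.19 rescaled without hormone genes. Stim2 was called under that last scaling (-0.54), rescaled without hormone and acinar genes (-0.43) and with voom (-0.48). The other transporters had 0 calls without hormone and acinar genes and 5 with voom, and the luminal list 5 with voom. Scaled to recovered reads, Atp2a2 was -0.93, Atp2a3 -0.50, Itpr2 -0.56, Itpr3 -0.31 and Itpr1 0.0049, and the regulators had 4 calls (2 rose, 2 fell), the luminal list 2 rises, the IP3 list 1 rise and the other transporters 1 rise, with no falls in these 3 lists. Scaling to recovered reads multiplies each library by its implied depth over its recovered total. That factor was 1.020 to 1.11 in Bcas2 cKO and 0.890 to 1.017 in control. The shifts on that scale come from this factor, and why it differs between the groups was not tested. Without a filter Itpr2 and Itpr3 kept their log2 changes, and the adjustment ran over 32845 genes in place of 13723. Rescaling without hormone genes multiplies each library by 1 factor, and the median over all genes tested moved from -0.03 to -0.12. What else moved the calls was not tested.

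The labels number both groups 1, 3 and 4, while the columns of Bcas2 cKO carry 3, 4 and 5, and whether column 5 is the sample labelled 1 is not known. Deviations correlated at -0.15 for number 3, 0.045 for number 4 and 0.011 for Bcas2 cKO 5 with control 1, so no pairing was shown. A replicate block on numbers 3 and 4, over 4 libraries, called 646 genes (413 rose, 233 fell). In it Atp2a3 (-0.53, adjusted p 0.19), Itpr2 (-0.54, 0.21) and Itpr3 (-0.35, 0.19) were not called, Calu (0.075) and Plcg1 (0.072) lost their calls, and the regulators had 2 calls and the luminal, IP3 and other transporter lists 0.

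With 1 library left out, 878 to 1950 genes were called. Log2 fold changes were -1.10 to -1.02 for Atp2a2, -0.70 to -0.55 for Atp2a3, -0.72 to -0.51 for Itpr2 and -0.55 to -0.35 for Itpr3. Calls numbered 1 to 2 in the luminal list, 1 to 6 among regulators, 1 to 3 in the IP3 list and 0 to 2 among other transporters. In these fits the luminal count was over 17 tested genes and the IP3 count over 16, Plcxd3 included. In the order of levels by longest transcript, 5 of 9 positions were the same in Bcas2 cKO and 7 of 9 in control. Ryr2, at 6 to 32 reads per library, is limited by depth.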
